A study of Mus musculus with 9 samples.

Results

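The transcripts of the 8 condensin subunit genes were followed in mouse regulatory T cells (Tregs) given engineered IL-2, natural IL-2 or no IL-2. The members, Smc2, Smc4, Ncapd2, Ncapg, Ncaph, Ncapd3, Ncapg2 and Ncaph2, were chosen by name with earlier results of these data known, among them the fall of Smc4 with IL-2. Its level against no IL-2 is therefore given as a description, with no test. The only other measured value used was the number of reads, by which 1 transcript was taken for each gene. All 8 were found among the 23992 gene symbols of the tables, and all 8 passed the filter on low values that left 10702 genes for testing.

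The cells were splenic Tregs of BALB/c mice, marked by green fluorescent protein linked to Foxp3. All of them, the no IL-2 controls included, carried a transduced IL-2 receptor beta chain of the orthogonal kind with a human EGFR tag. A culture of 48 hours on CD3/CD28 beads with human IL-2 at 1000 IU/mL came first. Tagged cells were then selected on magnets and deprived of IL-2 overnight. The ortho IL-2 group then received 2000000 IU/mL orthogonal IL-2 for 4 hours, the WT IL-2 group 20000 IU/mL wild-type IL-2, and the no IL-2 group none, with 3 libraries in each group. Both stimulated groups are set against the same 3 no IL-2 libraries, and the doses of the 2 cytokines differ. The transduced cells still had their own IL-2 receptors. In bulk RNA, fewer cells with a transcript and less of it per cell cannot be told apart.

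Condensins are ring-shaped ATPase complexes that fold DNA into loops and compact chromosomes for mitosis. Smc2 and Smc4 form the coiled-coil arms and ATPase heads of both complexes. Condensin I adds the kleisin Ncaph, which bridges the heads, and the HEAT-repeat subunits Ncapd2 and Ncapg; condensin II adds their counterparts Ncaph2, Ncapd3 and Ncapg2. Condensin I reaches chromosomes after the nuclear envelope breaks down, while condensin II is nuclear throughout the cell cycle. In T cells, condensin II is known for its part in chromatin compaction in quiescence and thymic development.

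Reads in genes numbered 16581624 to 58182835 per library. Levels below are RPKM on the scale of edgeR's TMM factors (reads divided by transcript length in kilobases and by the reads in tested genes), which allows levels of different genes to be compared. Known IL-2 targets marked the stimulated groups: Cish, an inhibitor of cytokine signalling, was 8.14-fold higher with ortho IL-2 and 7.73-fold higher with WT IL-2 than without IL-2. Summed Treg markers (Foxp3, Il2ra, Ctla4, Ikzf2 and Tnfrsf18, all 5 detected) came to 2480 to 2520 RPKM with ortho IL-2, 2450 to 2510 RPKM with WT IL-2 and 1500 to 1510 RPKM without IL-2. Much of the difference in the sum lay in Il2ra, itself a known IL-2 target. Il2ra averaged 1094 RPKM with ortho IL-2, 1128 RPKM with WT IL-2 and 275 RPKM without IL-2. The sum is thus no measure of Treg content apart from the response to IL-2. Foxp3 and Tnfrsf18 also had higher means in the stimulated groups, while Ctla4 and Ikzf2 had lower ones. Ctla4 averaged 466 RPKM with ortho IL-2, 470 RPKM with WT IL-2 and 672 RPKM without IL-2, and Ikzf2 143 RPKM with ortho IL-2, 149 RPKM with WT IL-2 and 182 RPKM without IL-2 (n = 3 each). The 6 CD8 and NK cell markers summed to 7.76 to 8.42 RPKM over the 9 libraries, with Ncr1 at 0 in 5 of them, and 5 B cell, 7 myeloid and 5 erythroid markers to at most 3.58 RPKM. General T cell markers, of which 6 of 7 were in the tables, summed to 1160 to 1220 RPKM with ortho IL-2, 1170 to 1200 RPKM with WT IL-2 and 1430 to 1470 RPKM without IL-2. The 6 moved unequally, so this sum is no measure of T cell content either. Cd28 averaged 97.8 RPKM with ortho IL-2, 104 RPKM with WT IL-2 and 186 RPKM without IL-2. Lck, alone of the 6, averaged higher with both cytokines, at 224, 214 and 207 RPKM in the same order. Ortho IL-2 replicate 3 and WT IL-2 replicate 1 stood apart from the other libraries of their groups. Their counts differed from those of their fellow replicates by a chi-square of 24.2 to 36.4 per degree of freedom, against 5.03 to 7.76 for every other pair within a group. This statistic on raw counts can grow with depth. Both libraries had the most reads in genes of their groups, 58182835 and 38797874, and the part of depth was not tested.

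The promoter sequences of 7 of the 8 members were in the RefSeq table for GRCm38.p6, and that of Smc4 was not used here. Many genes of late cell cycle carry the cell cycle genes homology region (CHR), with the letters TTTGAA, which is bound by DREAM and MYB-MuvB complexes. Searched on both strands in the 250 bases before that table's start of each gene, TTTGAA was found in 4 of the 7 members (Smc2, Ncapd2, Ncapg and Ncapg2), against 16.0% of 32851 promoters. The related letters TTCGAA were found in Ncaph2, against 1.34% of promoters. The 30 bases around each match are shown because they set side by side what these promoters share. Capitals mark the motif, and each sequence is written 5′ to 3′ along the gene's own strand. Distances are from the start in the promoter table. In RefSeq's gene table the outermost start of Ncapd2, Ncapg and Ncapg2 lies 514, 34 and 85 bases further upstream, so that the TTTGAA of these 3 lies inside the gene's full extent, whereas for the other 4 members both tables give the same start.
Smc2 (chr4:52439064-52439093, + strand, motif on the opposite strand, 145 bases before the start): tcgctttccatgTTCAAAacggtatagtct
Ncapd2 (chr6:125191692-125191721, - strand, 123 bases before the start): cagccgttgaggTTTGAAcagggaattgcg
Ncapg (chr5:45669883-45669912, + strand, 30 bases before the start): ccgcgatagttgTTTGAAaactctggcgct
Ncapg2 (chr12:116405406-116405435, + strand, 18 bases before the start): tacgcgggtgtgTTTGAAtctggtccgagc
Ncaph2 (chr15:89355685-89355714, + strand, TTCGAA, 22 bases before the start): cttctttacttcTTCGAAactgggcccgcc

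CCAAT, the motif of NF-Y, was found in 3 of the 7 promoters (Smc2, Ncapd2 with 3 matches, and Ncapg), against 33.8% of all promoters. An E2F motif, TTTCCCGC, was found in Ncapg2 alone of the 7, against 0.895%. The letters TTCNNNGAA, which STAT5 can bind, were found in Ncaph and Ncaph2, against 7.02%. In Ncaph2 this match includes the TTCGAA shown above. These matches are letters in a window and say nothing of binding in these cells.

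Smc4 stood far above its partners in every group. Its level was 481, 536 and 452 RPKM with ortho IL-2, 444, 579 and 552 RPKM with WT IL-2, and 951, 945 and 931 RPKM without IL-2. The no IL-2 libraries lay close together and above every stimulated library, while the stimulated groups overlapped each other. Without IL-2, Smc4 ranked 38 of 10702 genes by this level. The next member, Ncapd2, ranked 1278 and the lowest, Ncapd3, 2870. The log2 fold change of Smc4 was -0.95 (SE 0.10) for ortho IL-2 against no IL-2 and -0.84 (SE 0.10) for WT IL-2 against no IL-2, or 0.519 and 0.557 of the no IL-2 level. Among all genes tested, 7.54% were called lower by at least 1.5-fold with ortho IL-2 and 5.53% with WT IL-2, a contrast that the choice of members had already used.

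Smc2, the partner that dimerizes with Smc4, differed far less between groups. Its level was 48.4, 50.1 and 43.6 RPKM with ortho IL-2, 44.0, 55.4 and 55.2 RPKM with WT IL-2, and 54.7, 53.7 and 52.5 RPKM without IL-2. The ortho IL-2 libraries all lay below the no IL-2 ones, and the WT IL-2 libraries lay on both sides of them. Smc2 was not called by edgeR's quasi-likelihood test for ortho IL-2 against no IL-2 (log2 fold change -0.18, 95% interval -0.38 to 0.02, adjusted p = 0.104). Nor was it called for WT IL-2 (-0.06, interval -0.25 to 0.14, adjusted p = 0.613). With ortho IL-2 it was called lower, also at -0.18, without WT IL-2 replicate 1 (edgeR adjusted p = 0.0125). The same held in a fit on the ortho IL-2 and no IL-2 groups only (edgeR adjusted p = 0.0222). These log2 fold changes moved when smooth curves of each library's counts against GC content and transcript length were taken out together (GC offsets). With GC offsets, Smc2 was called higher at 0.14 with ortho IL-2 and 0.15 with WT IL-2 (edgeR adjusted p = 0.00536 and 0.00314). The parts of GC content and of length in this shift were not tested separately.

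The transcripts of the 2 arms of the ring stood at a very unequal ratio that differed between groups. The ratio of Smc4 to Smc2 in RPKM was 9.93, 10.7 and 10.4 with ortho IL-2, 10.1, 10.4 and 10.0 with WT IL-2, and 17.4, 17.6 and 17.7 without IL-2. It averaged 10.3 ± 0.387 with ortho IL-2, 10.2 ± 0.235 with WT IL-2 and 17.6 ± 0.174 without IL-2 (SD, n = 3 each). The ratio varied less within the stimulated groups than either level did. The coefficient of variation of Smc4 alone was 8.67% with ortho IL-2, 13.6% with WT IL-2 and 1.11% without IL-2. Smc4 made up 63.4% ± 1.54 of the summed RPKM of the 8 members with ortho IL-2, 64.4% ± 2.49 with WT IL-2 and 75.5% ± 0.404 without IL-2 (SD, n = 3 each).

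**Figure D1:**
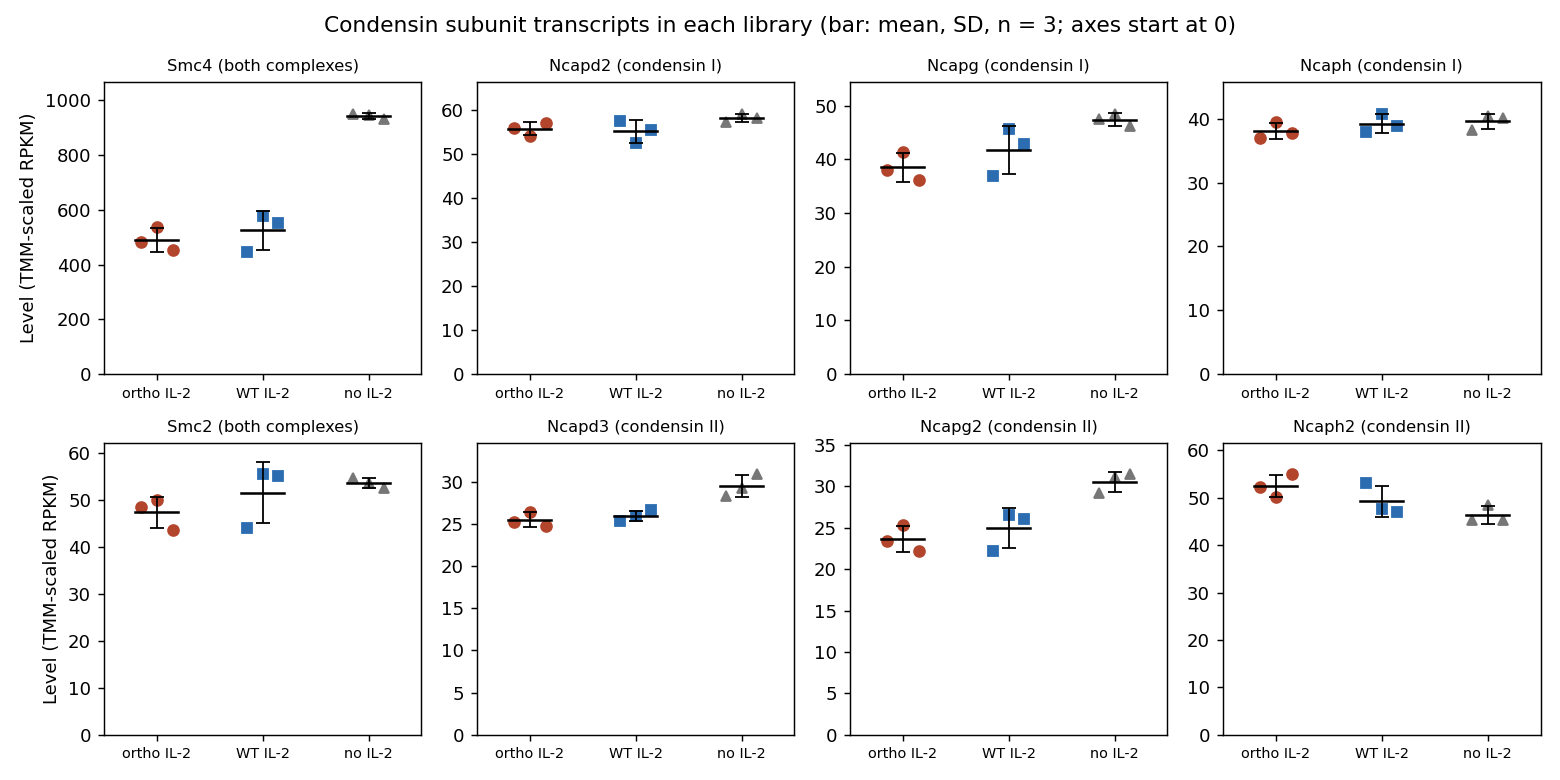
Levels of the 8 condensin subunit transcripts (y axis, TMM-scaled RPKM, each panel on its own scale from 0) in the 3 libraries of each group (points), with mean and SD. Smc4 lay at 931 to 951 RPKM without IL-2 and at 444 to 579 RPKM in the stimulated libraries, while the other members lay between 22.2 and 59.3 RPKM in every library.

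On TMM-scaled counts, the other 7 members moved little with either cytokine, and more of them were called lower than higher. With ortho IL-2, 3 of the 7 fell (Ncapg, Ncapd3 and Ncapg2), 1 rose (Ncaph2) and 3 were not called (Smc2, Ncapd2 and Ncaph). Over all genes tested, 56.0% were called in this comparison, 28.5% higher and 27.4% lower, so the share of these members called was near the background. With WT IL-2, 2 of the 7 fell (Ncapd3 and Ncapg2), 0 rose and 5 were not called by edgeR. The count higher was also 0 at an unadjusted p under 0.05 and by DESeq2. The background there was 47.9% called, 25.0% higher and 22.9% lower. The groups did not overlap for 6 of the 7 with ortho IL-2, against 66.1% of all genes, and for 3 of the 7 with WT IL-2, against 58.8%. The median log2 fold change of the 7 was -0.18 with ortho IL-2 and -0.08 with WT IL-2, beside 0.01 over all genes in both comparisons. These directions depended on the scaling. On unscaled RPKM (limma), 3 were called higher and 0 lower with ortho IL-2, and 1 higher and 0 lower with WT IL-2. The fit with GC offsets called 1 higher (Smc2) in each comparison, with 2 lower for ortho IL-2 and 3 for WT IL-2.

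Of the condensin I subunits, Ncapg was called on TMM-scaled counts, with ortho IL-2, and Ncapd2 with GC offsets. Ncapg is a HEAT-repeat subunit whose yeast counterpart grips DNA together with the kleisin. It had 38.0, 41.4 and 36.1 RPKM with ortho IL-2, 36.9, 45.7 and 42.8 RPKM with WT IL-2, and 47.5, 48.5 and 46.2 RPKM without IL-2. All 6 stimulated libraries lay below the 3 without IL-2. Ncapg fell with ortho IL-2 (log2 fold change -0.30, SE 0.08, edgeR adjusted p = 0.00885). With WT IL-2 it did not pass the threshold (-0.18, SE 0.08, adjusted p = 0.0792). With GC offsets the values were -0.02 and 0.00, and Ncapg was called in neither comparison.

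Ncapd2 and Ncaph, the other condensin I subunits, differed little between groups. Ncapd2 had 56.0, 54.3 and 57.2 RPKM with ortho IL-2, 57.5, 52.5 and 55.6 RPKM with WT IL-2, and 57.3, 59.3 and 58.3 RPKM without IL-2. Its log2 fold change was -0.06 with ortho IL-2 (95% interval -0.16 to 0.04, edgeR adjusted p = 0.269) and -0.08 with WT IL-2 (interval -0.18 to 0.02, adjusted p = 0.183). With GC offsets Ncapd2 was called lower in both comparisons, at -0.19 and -0.18. The kleisin Ncaph had 37.0, 39.5 and 37.7 RPKM with ortho IL-2, 38.0, 40.8 and 38.9 RPKM with WT IL-2, and 38.3, 40.4 and 40.1 RPKM without IL-2. The groups of Ncaph overlapped in both comparisons. Its log2 fold changes were -0.06 (95% interval -0.16 to 0.05) and -0.01 (-0.12 to 0.09), or 0.00 and 0.01 with GC offsets, and it was called in neither fit.

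The condensin II subunits Ncapd3 and Ncapg2 fell with both cytokines. Ncapg2, the condensin II counterpart of Ncapg, had 23.4, 25.3 and 22.2 RPKM with ortho IL-2, 22.2, 26.5 and 26.1 RPKM with WT IL-2, and 29.2, 31.1 and 31.5 RPKM without IL-2. Every stimulated library lay below every library without IL-2. The log2 fold changes of Ncapg2 were -0.37 with ortho IL-2 (SE 0.08, edgeR adjusted p = 0.00236) and -0.29 with WT IL-2 (SE 0.08, adjusted p = 0.00939). It was still called with GC offsets, at -0.21 in both comparisons (adjusted p = 0.00139 and 0.0017). Ncapg2 was called in all 9 fits that left out 1 library, in both comparisons.

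Ncapd3 is the HEAT-repeat counterpart of Ncapd2. Its level was 25.3, 26.5 and 24.8 RPKM with ortho IL-2, 25.3, 25.9 and 26.6 RPKM with WT IL-2, and 28.3, 29.3 and 30.9 RPKM without IL-2. The stimulated and unstimulated libraries did not overlap. Ncapd3 fell by 0.21 on the log2 scale with ortho IL-2 (SE 0.05, edgeR adjusted p = 0.00441) and by 0.18 with WT IL-2 (SE 0.05, adjusted p = 0.00969). With GC offsets it lay at -0.09 with ortho IL-2, not called (adjusted p = 0.0601), and at -0.12 with WT IL-2, still called (adjusted p = 0.0224). Without the filter on low counts it was called in neither comparison (-0.14 and -0.13, edgeR adjusted p = 0.072 and 0.105).

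Ncaph2, the condensin II kleisin, went the other way. It had 52.2, 50.2 and 54.9 RPKM with ortho IL-2, 53.1, 47.6 and 47.0 RPKM with WT IL-2, and 45.2, 48.5 and 45.3 RPKM without IL-2. The ortho IL-2 libraries lay above the no IL-2 ones, and the WT IL-2 libraries overlapped both. Ncaph2 rose with ortho IL-2 (log2 fold change 0.18, SE 0.06, edgeR adjusted p = 0.0275) and was not called with WT IL-2 (0.09, SE 0.06, adjusted p = 0.251). With GC offsets it lay at -0.03 and -0.07, called in neither comparison. The rise with ortho IL-2 was also not called without ortho IL-2 replicate 1 or 3 or no IL-2 replicate 1 or 3 (highest adjusted p = 0.0942).

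Ncaph2 overlaps Sco2, a copper chaperone of cytochrome oxidase, and Tymp, thymidine phosphorylase, both on the opposite strand. The exons share 829 bases with Sco2 and 535 bases with Tymp, and the use of strand in counting is not given in the sources used here. Both neighbours rose with ortho IL-2, by log2 fold changes of 1.26 (SE 0.25) and 1.57 (SE 0.29; edgeR adjusted p = 0.00225 and 0.00149), and with WT IL-2, by 0.95 and 1.16 (adjusted p = 0.0123 and 0.0103). Sco2 had 43 to 338 reads and Tymp 19 to 220 reads per library, beside 2474 to 10918 reads of Ncaph2. Lmf2, which starts 24 bases from Ncaph2 on the opposite strand, rose as well (0.56 and 0.43, adjusted p = 0.00269 and 0.0115). Of all genes tested, 28.5% were called higher with ortho IL-2 and 25.0% with WT IL-2. The part of these neighbours in the values of Ncaph2 was not tested.

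GC content and the 2 libraries that stood apart moved with these small differences. Over 4 equal classes of transcript GC content, from AT-rich to GC-rich, the medians of all genes were -0.20, -0.06, 0.08 and 0.25 (log2 fold change of ortho IL-2 against no IL-2). They were -0.13, -0.03, 0.05 and 0.17 for WT IL-2 against no IL-2, and -0.075, -0.029, 0.022 and 0.082 for ortho IL-2 against WT IL-2. Since this trend differed between groups, GC offsets may also take out part of a response to IL-2, which was not tested. The 3 members with the lowest GC content, Smc2 (39.3%), Ncapg (39.8%) and Smc4 (40.2%), were lowest in ortho IL-2 replicate 3 and WT IL-2 replicate 1 within their groups. So were Ncapg2 (44.3%) and Ncapd3 (46.8%). Ncapd2 (54.0%) and Ncaph2 (55.7%), the members with the highest, were highest in those same libraries. With those libraries left out, Smc4 lay at -0.89 with ortho IL-2 and -0.74 with WT IL-2. With GC offsets it lay at -0.67 in both comparisons, so it was still the lowest of the 8 members. Smc2 was called lower with ortho IL-2 when those libraries were left out (-0.12, edgeR adjusted p = 0.00994), the opposite direction to its call with GC offsets.

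**Figure D2:**
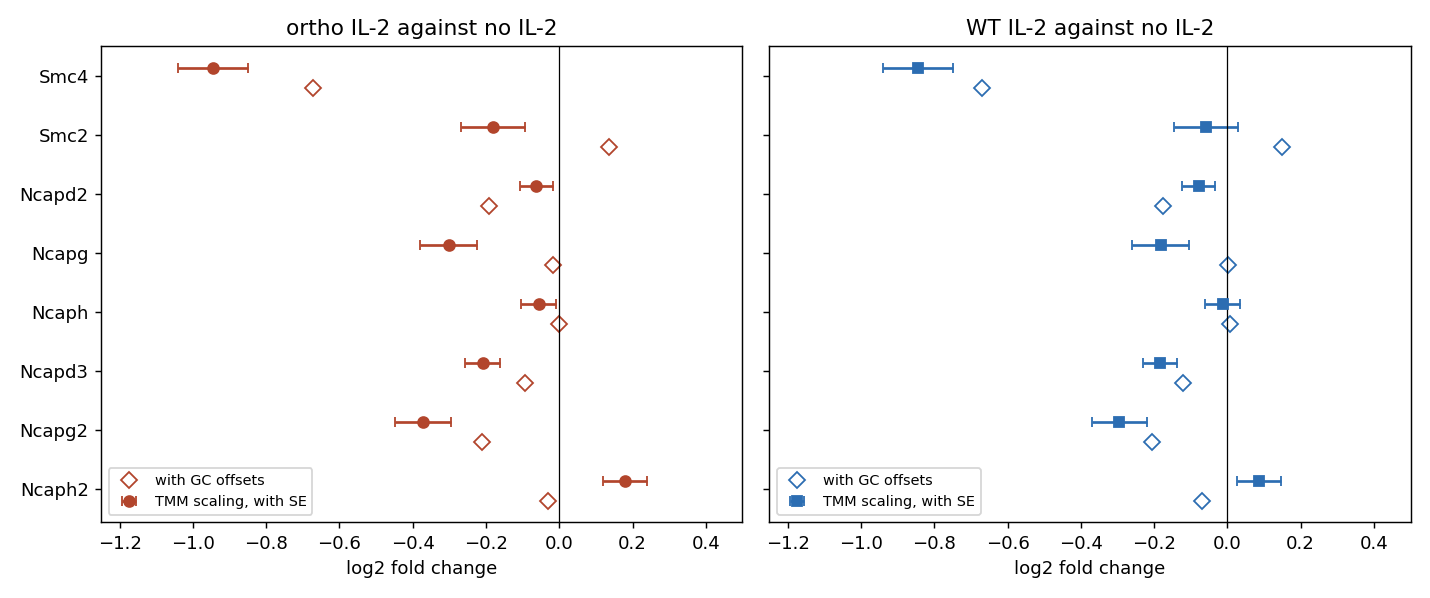
Log2 fold changes (x axis) of the 8 condensin members for ortho IL-2 against no IL-2 (left) and WT IL-2 against no IL-2 (right); filled points with SE are from the fit on TMM-scaled counts and open diamonds from the fit with GC offsets. Smc4 lay at -0.95 and -0.84, or -0.67 with GC offsets in both, while Smc2 and Ncaph2 lay on opposite sides of 0 with and without GC offsets.

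The reads that lay outside the 1 transcript kept per gene also differed between groups, with a mean share of 29.4% with ortho IL-2, 31.7% with WT IL-2 and 40.5% without IL-2. On the deposited RPKM without TMM scaling, where these reads count towards depth, the median of all genes lay at 0.28 for ortho IL-2 and 0.22 for WT IL-2 against no IL-2. Relative to those medians, Smc4 lay at -0.96 and -0.86, Ncapg2 at -0.38 and -0.30, Ncapg at -0.31 and -0.19, Ncapd3 at -0.21 and -0.19, Smc2 at -0.19 and -0.07, and Ncaph2 at 0.17 and 0.08. Unadjusted for that shift, Smc4 (-0.67 and -0.64), Ncapg2 and, with ortho IL-2, Ncapg stayed below 0 and the other members lay above it, and 0 of the 7 members other than Smc4 were called lower by limma on that scale.

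Within each complex, the counterparts had unlike levels. In condensin I, Ncapd2 was the most abundant of the complex's own subunits and Ncaph the least in the no IL-2 group, at 58.3 ± 0.993 and 39.6 ± 1.18 RPKM, with Ncapg between them at 47.4 ± 1.17 RPKM (SD, n = 3 each). In condensin II the order was turned, with the kleisin Ncaph2 at 46.3 ± 1.89 RPKM above Ncapg2 at 30.6 ± 1.20 RPKM and Ncapd3 at 29.5 ± 1.30 RPKM without IL-2. The levels of Ncapg2 and Ncapd3 overlapped there, as did those of Ncapg and Ncaph2. The summed level of the 3 condensin I subunits was 132 ± 2.39 RPKM with ortho IL-2, 136 ± 3.40 RPKM with WT IL-2 and 145 ± 2.67 RPKM without IL-2. The 3 condensin II subunits summed to 102 ± 0.625 RPKM with ortho IL-2, 100.1 ± 0.449 RPKM with WT IL-2 and 106 ± 3.23 RPKM without IL-2. The ratio of the sums, condensin I to condensin II, was 1.29 to 1.32 with ortho IL-2, 1.32 to 1.39 with WT IL-2 and 1.34 to 1.39 without IL-2. The ortho IL-2 libraries all lay below the no IL-2 ones in this ratio, and the WT IL-2 libraries overlapped both. This ratio was not computed with GC offsets. Those offsets put the log2 fold changes with ortho IL-2 at -0.02 for Ncapg, -0.19 for Ncapd2 and -0.03 for Ncaph2.

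Ratios between subunits of 1 complex gave a smaller contrast than that of Smc4 to Smc2. The ratio of Ncapg to Ncapd2 was 0.679, 0.762 and 0.632 with ortho IL-2, 0.642, 0.871 and 0.770 with WT IL-2, and 0.829, 0.819 and 0.792 without IL-2. The ratio of Ncapg2 to Ncapd3 was 0.928, 0.957 and 0.895 with ortho IL-2, 0.876, 1.03 and 0.982 with WT IL-2, and 1.03, 1.06 and 1.02 without IL-2. For both ratios the ortho IL-2 libraries lay below the no IL-2 ones and the WT IL-2 libraries overlapped them. In both, ortho IL-2 replicate 3 and WT IL-2 replicate 1 gave the lowest value of their group. GC offsets were not applied to these ratios. Under these offsets, Ncapg lay at -0.02 with ortho IL-2 and 0.00 with WT IL-2, and Ncapd2 at -0.19 and -0.18. Ncapd2 thus fell more than Ncapg there, the reverse of the order without offsets, while Ncapg2 still lay below Ncapd3.

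**Figure D3:**
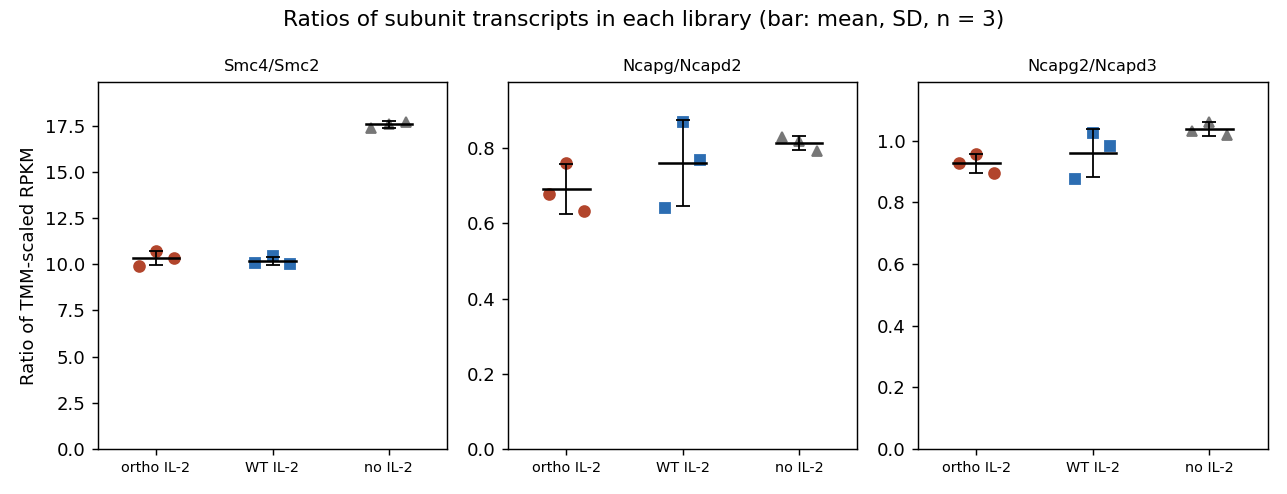
Ratios of TMM-scaled RPKM (y axis, from 0) of Smc4 to Smc2, Ncapg to Ncapd2 and Ncapg2 to Ncapd3 in the 3 libraries of each group (points), with mean and SD. The ratio of Smc4 to Smc2 lay at 9.93 to 10.7 in the 6 stimulated libraries and at 17.4 to 17.7 in the 3 without IL-2. GC offsets were not applied to these ratios.

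Smc4 lies on chromosome 3 (chr3:69004738-69034623, GRCm38.p6, + strand) in a tight group of genes. Ift80, a subunit of the intraflagellar transport complex, is transcribed away from it on the opposite strand, with 57 bases between the genes. Trim59, a RING-finger ubiquitin ligase gene, faces it from the other side with 668 bases between them. Both neighbours fell with both cytokines, beside 27.4% of all genes called lower with ortho IL-2 and 22.9% with WT IL-2. Ift80 had 87.0, 94.5 and 84.4 RPKM with ortho IL-2, 82.8, 93.8 and 91.7 RPKM with WT IL-2, and 149.5, 150.2 and 149.7 RPKM without IL-2. Trim59 had 149, 169 and 133 RPKM with ortho IL-2, 132, 178 and 177 RPKM with WT IL-2, and 279, 278 and 276 RPKM without IL-2. As for Smc4, the no IL-2 libraries of both genes lay close together and above every stimulated library.

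The log2 fold changes of Ift80 were -0.76 with ortho IL-2 (SE 0.06, edgeR adjusted p = 4.08e-06) and -0.74 with WT IL-2 (SE 0.06, adjusted p = 4.70e-06). Trim59 lay at -0.88 (SE 0.12, adjusted p = 0.000148) and -0.77 (SE 0.12, adjusted p = 0.000381). Both were still called with GC offsets, Ift80 at -0.55 and -0.61 and Trim59 at -0.54 and -0.55. Smc4, by far the most abundant of the 3, had 47146 to 115072 reads per library, beside 8329 to 20530 reads of Ift80 and 10616 to 24136 reads of Trim59. The genes do not overlap in the annotation, and whether reads beyond annotated ends add to a neighbour's count was not tested.

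**Figure D4:**
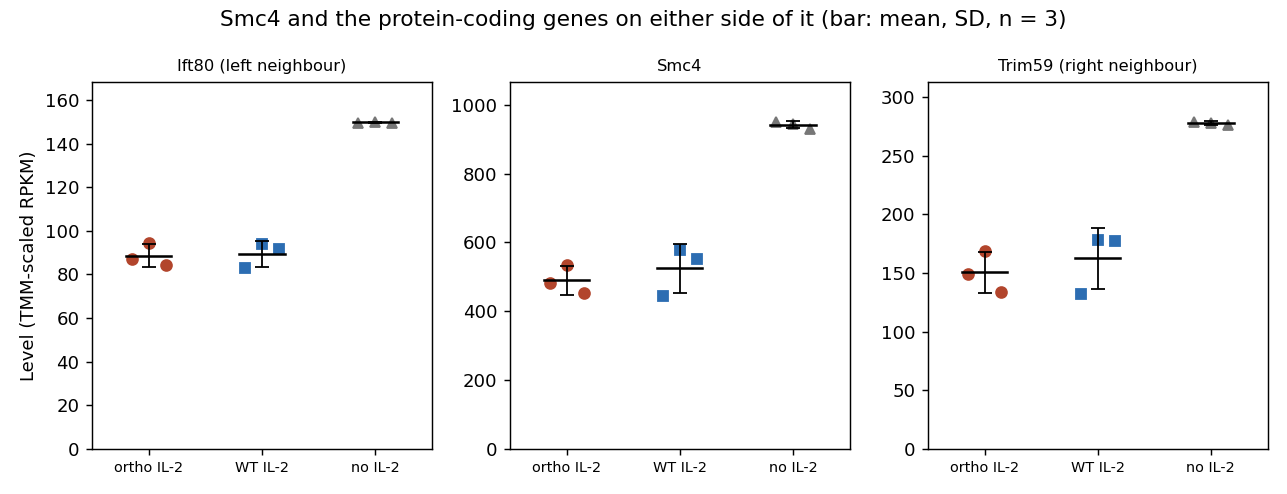
Levels (y axis, TMM-scaled RPKM, each panel on its own scale from 0) of Smc4 and of the protein-coding genes on either side of it in the 3 libraries of each group (points), with mean and SD. Without IL-2, Ift80 lay at 149.5 to 150.2, Smc4 at 931 to 951 and Trim59 at 276 to 279 RPKM, above all 6 stimulated libraries of the same gene.

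Smc4 also hosts 2 miRNA genes, Mir15b and Mir16-2, which lie outside its annotated exons. Their main products belong to the miR-15/16 family, known for restraining cell cycle genes, and share the seed (bases 2 to 8), which decides most of a miRNA's targets. They are shown, from RefSeq with GRCm38.p6, because their host is the member that changed most. Capitals mark the seed.
miR-15b-5p (chr3:69009775-69009796, + strand): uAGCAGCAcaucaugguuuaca
miR-16-5p (chr3:69009918-69009939, + strand): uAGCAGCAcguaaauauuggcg
The tables held 0 to 4 reads of Mir15b and 0 to 2 reads of Mir16-2 per library, which lie at or near the floor of 3 reads. A library made with an mRNA kit does not measure mature miRNAs, so their levels are not given. The same mature miR-16-5p is also encoded by Mir16-1 on chromosome 14.

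The neighbours of the remaining members went different ways. For scale, 56.0% of all genes tested were called with ortho IL-2 and 47.9% with WT IL-2. Ncapd2 lies 1539 bases from Gapdh, a glycolytic enzyme (0.39 and 0.25, edgeR adjusted p = 0.000309 and 0.00598, not called with GC offsets; its reads can be shared with pseudogenes). On its other side, 99 bases away, lies Mrpl51, a mitochondrial ribosomal protein (0.26 and 0.25, adjusted p = 0.0154 and 0.0205), so both neighbours of Ncapd2 rose while it did not. Scarna10 within Ncapd2 had 0 to 9 reads per library, too few for a fold change. Lcorl shares 769 exon bases with the end of Ncapg and fell with ortho IL-2 (-0.55, adjusted p = 0.00466), but was not called with WT IL-2 (-0.31, adjusted p = 0.0647) or with GC offsets. Gm3414, 19119 bases from Ncapg, fell by 0.47 and 0.28 (adjusted p = 0.00318 and 0.0405), also not called with GC offsets.

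Next to Ncaph lies Itpripl1 (0.16 in both comparisons, edgeR adjusted p = 0.29 and 0.312). Next to Ncapd3 lies the retromer gene Vps26b (0.04 and 0.03, adjusted p = 0.512 and 0.592), 70 bases away, and next to Ncapg2 lies D430020J02Rik (0.07 and 0.13, adjusted p = 0.736 and 0.542). None of these 3 was called. Smc2os beside Smc2, 1600023N17Rik beside Ncapg, Jam3 beside Ncapd3 and Odf3b beside Ncaph2 fell under the filter on low values, at 0 to 69 reads in each library. Tmc4-ps and Vma21-ps near Smc2, Gm35347 and Gm39922 near Ncaph and Gm25112 near Ncapg2 were not analysed here.

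For ortho IL-2 against WT IL-2, 0 of the 8 members were called, 0 of them had groups that did not overlap, and 0 had an unadjusted p under 0.05. Over all 10702 genes 0.00% were called, by edgeR (149 genes had an unadjusted p under 0.05) and by DESeq2, and 4.65% had groups that did not overlap. The log2 difference of Smc4 was -0.10 (95% interval -0.31 to 0.11, edgeR adjusted p = 0.909). Intervals of the other members ran from -0.32 to 0.07 for Smc2, -0.29 to 0.05 for Ncapg and -0.25 to 0.09 for Ncapg2. They ran from -0.09 to 0.12 for Ncapd2, -0.15 to 0.06 for Ncaph, -0.13 to 0.08 for Ncapd3 and -0.04 to 0.22 for Ncaph2. No member's interval reached beyond 0.32 on the log2 scale in either direction, at unmatched doses.

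The related SMC complexes and condensin's mitotic partners were described by lists. Cohesin, built on Smc1a and Smc3, holds sister chromatids together and forms interphase loops. Of 21 genes of cohesin, its loaders and its regulators, 19 were tested. By edgeR, the ortho IL-2 comparison had 0 higher and 7 lower (median -0.14, beside 0.01 over all genes), and the WT IL-2 comparison 0 higher and 6 lower (median -0.09). The shares over all genes, for these lists as for the members, stood at 28.5% higher and 27.4% lower for ortho IL-2 and 25.0% higher and 22.9% lower for WT IL-2. At an unadjusted p under 0.05, and by DESeq2, 0 were higher in both comparisons. Stag2, a cohesin subunit, fell by 0.56 and 0.45 on the log2 scale, the loader Nipbl by 0.46 and 0.38, and Hdac8, the deacetylase of Smc3, by 0.47 and 0.55. With GC offsets the cohesin list had 6 higher and 6 lower for ortho IL-2, and 5 higher and 6 lower for WT IL-2.

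The SMC5/6 complex, which acts in DNA repair and restrains extrachromosomal DNA, held, among the genes of the 3 lists, the fall nearest in size to that of Smc4. Smc6 had 87.8, 96.2 and 80.3 RPKM with ortho IL-2, 80.2, 101.8 and 99.3 RPKM with WT IL-2, and 183.7, 183.7 and 186.0 RPKM without IL-2. Its no IL-2 libraries, too, lay close together and above all others. Smc6 fell by 1.07 with ortho IL-2 (SE 0.09, edgeR adjusted p = 8.81e-06) and by 0.98 with WT IL-2 (SE 0.09, adjusted p = 1.68e-05), or by 0.79 and 0.80 with GC offsets. Its partner Smc5 fell by 0.39 and 0.33 (adjusted p = 0.012 and 0.029), or lay at -0.05, not called, and -0.11 with GC offsets. Of 8 genes listed with this complex, 7 were tested, with 5 lower and 0 higher for ortho IL-2 and 4 lower and 0 higher for WT IL-2 by edgeR, beside 27.4% and 22.9% lower over all genes, and likewise 0 higher at an unadjusted p under 0.05 and by DESeq2. Among them were Smchd1, an SMC protein of X inactivation (-0.36 and -0.28), and Nsmce4a, the kleisin of SMC5/6 (-0.31 and -0.29), both with both cytokines. The list medians were -0.31 and -0.28.

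The 27 genes that act on or with condensin in mitosis, all tested, went both ways. The ortho IL-2 comparison had 4 higher and 11 lower (median -0.09), and the WT IL-2 comparison 3 higher and 7 lower (median -0.05). Over all genes 56.0% and 47.9% were called in either direction, so the number of partners called was not above the background. The ortho IL-2 count lower was 7 without ortho IL-2 replicate 1 or 3 or no IL-2 replicate 1. The count higher was 2 without ortho IL-2 replicate 3 or no IL-2 replicate 3 and 1 without no IL-2 replicate 1, where it was also 1 for WT IL-2. Top2b, the topoisomerase II of interphase, fell by 0.67 and 0.56 (edgeR adjusted p = 0.000122 and 0.000431). Cenpa, the centromeric histone, fell by 0.41 and 0.47 (adjusted p = 0.000141 and 6.23e-05). Of 7 further genes named after their values were seen, Top2a, the mitotic counterpart of Top2b, was not called (-0.03 and 0.06, adjusted p = 0.767 and 0.464), but was called higher with GC offsets (0.15 and 0.17). Mitotic kinases, which phosphorylate condensin among other proteins, went different ways. Cdk1 rose by 0.16 and 0.13 (adjusted p = 0.0119 and 0.03) and Plk1 by 0.30 and 0.29 (adjusted p = 0.0119 and 0.015), though Plk1 was not called with GC offsets (0.05 and 0.11). Ttk fell by 0.33 and 0.24 (adjusted p = 0.00386 and 0.02), and its call with WT IL-2 was lost without WT IL-2 replicate 1 or no IL-2 replicate 2 or 3 (highest adjusted p = 0.071). Aurka (0.08 in both) and Aurkb (-0.01 and -0.05) were not called, while Aurkb was called lower with GC offsets (-0.12 and -0.14). Mcph1, the inhibitor of condensin II, fell by 0.30 in both comparisons (adjusted p = 0.00576 and 0.00676).

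**Figure D5:**
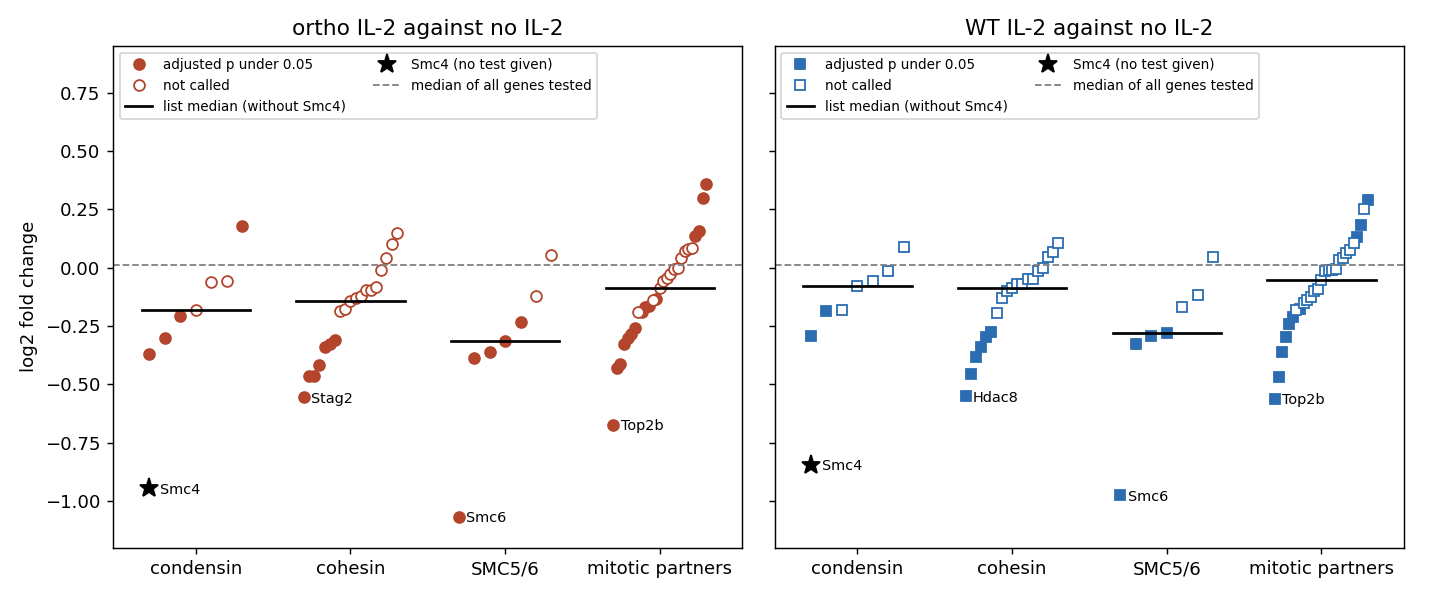
Log2 fold changes (y axis) of the condensin members and of the cohesin, SMC5/6 and mitotic partner lists for ortho IL-2 against no IL-2 (left) and WT IL-2 against no IL-2 (right). Filled points passed an edgeR adjusted p of 0.05, the star is Smc4, black lines are list medians, that of condensin without Smc4 (-0.18, -0.14, -0.31 and -0.09 on the left) and the dashed line is the median of all genes at 0.01.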

How the data were processed

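Total RNA from Tregs was made into libraries with an mRNA kit and sequenced, 3 libraries for each of 3 groups. Nothing in the labels ties the 3 libraries of a group to different cultures or animals. The p-values thus reflect the spread between these libraries alone, and that spread may be technical. The growth protocol label describes another assay, and the culture given here follows the treatment protocol label. The deposited tables, per the file headers, hold raw read counts and RPKM for 31682 transcripts of 23992 symbols. The RPKM deposited by the authors equal counts divided by length and by a library total that also holds reads outside these transcripts. The submitters' processing notes name the mm10 build, edgeR, bedtools 2.25.0, SAMtools 0.1.8, TopHat2 and Bowtie2. The role of each tool, the use of strand and the gene annotation behind the counts were not given in the sources used here.

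For each symbol the transcript with the most reads over the 9 libraries was kept. For Ncaph2, 2 transcripts had equal reads in all 9 libraries, and the longer was taken. The 10702 genes that reached an RPKM of 1 in 3 or more libraries were scaled by TMM and fitted in R 4.3.3 with edgeR 4.0.16, whose quasi-likelihood F test was used. Group means over all 9 libraries were the terms, tests were two-sided, and Benjamini-Hochberg adjustment ran over all genes tested, with a threshold of 0.05. "Called" means past that threshold. The procedure was tested on simulated data. The members and lists were chosen with earlier results of these data known, so their calls are no independent support. The rule for named genes took all 8 members, up to 3 called genes of each list per comparison by size of change, every overlapping or nearest annotated gene, the 5 genes most like Smc4 and Ncaph2, and Cish, Socs1, Il2ra and Myc. One gene that the rule took from a list is not reported here. Wapl and Adgre1 were matched under the older symbols Wapal and Emr1, and Trac was not analysed here. Neighbours and coordinates are from RefSeq with GRCm38.p6, exons from GENCODE M21, and GC content was known for 99.6% of genes tested. Alternatives were limma 3.58.1 on log2(RPKM + 0.1) or quantile-normalized values, DESeq2 1.42.0, no filter, other transcripts and other covariates. GC offsets, a replicate block, fits on 2 groups only and leaving out libraries were also used. The GC offsets were smooth curves over GC content and transcript length from mgcv 1.9.3. At a depth of 16581624 to 58182835 reads, the floor of 3 reads is 0.0516 to 0.181 CPM, for counting error only.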

Additional observations from a re-analysis of the deposited data

How the results depend on the processing

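Of 7 members other than Smc4, Ncapg2 was called lower in both comparisons against no IL-2 under every alternative except unscaled RPKM and the covariate on reads outside genes. Each other call of these 7 was lost under further alternatives, such as GC offsets or no filter, and the cause was not tested. Smc4 kept its direction under every alternative run. Every member had at least 1768 reads in each library.

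On unscaled RPKM (limma), the 7 members called numbered 3 higher and 0 lower for ortho IL-2 and 1 higher and 0 lower for WT IL-2. The values that changed sign there against no IL-2 were, with ortho IL-2, Smc2 0.095, Ncapd2 0.213, Ncaph 0.219, Ncapd3 0.067, Top2a 0.249 and Aurkb 0.267, and with WT IL-2, Smc2 0.149, Ncapd2 0.134, Ncapg 0.027, Ncaph 0.2, Ncapd3 0.03 and Aurkb 0.157. For ortho IL-2 against WT IL-2 they were Ncaph 0.02 and Ncapd3 0.037. Lists there had 4 higher and 1 lower (cohesin), 1 and 1 (SMC5/6) and 12 and 1 (partners) with ortho IL-2, and 2 and 1, 1 and 1, and 10 and 2 with WT IL-2. With no filter, Ncapd2 lay at 0.01, Ncaph at 0.016, Top2a at 0.046 and Aurkb at 0.065 with ortho IL-2, and Ncaph at 0.042 with WT IL-2, while partners lower numbered 6 and 4, and 1 of the 7 members was lower with WT IL-2. With quantile normalization, Ncaph lay at 0.005 with WT IL-2 and Top2a at 0.029 with ortho IL-2.

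With GC offsets, 1 member was higher with WT IL-2. Signs changed with ortho IL-2 for Smc2 (0.137), Ncaph2 (-0.03), Itpripl1 (-0.042) and Top2a (0.15), and with WT IL-2 for Smc2 (0.15), Ncapg (0.001), Ncaph (0.008), Ncaph2 (-0.07) and Gm3414 (0.001). For ortho IL-2 against WT IL-2, Ncapd2 lay at -0.016 and Ncapd3 at 0.026. With a covariate for the share of reads outside transcripts, 1573 genes were called with ortho IL-2 and 2130 with WT IL-2. That share was 25.7% to 34.9% in the stimulated libraries and 38.9% to 43.3% without IL-2. The fit therefore cannot tell the share apart from IL-2, and calls lost in it are not evidence against a difference. Of the 7 members, 0 were called in either comparison with this covariate. Aurka lay at -0.033 with ortho IL-2, and with WT IL-2 Smc2 lay at 0.07, Ncaph2 at -0.007 and Aurka at -0.015. Cohesin then had 0 lower, SMC5/6 had 1 lower in each comparison, and partners had 0 higher in each, with 1 lower for ortho IL-2 and 2 for WT IL-2. With ortho IL-2 replicate 3 and WT IL-2 replicate 1 both left out, an alternative chosen after seeing the data, Smc2 lay at 0.041 and Ncaph at 0.007 with WT IL-2, Top2a at 0.017 with ortho IL-2, and 5 partners and 1 cohesin gene were higher with WT IL-2.

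Deviations of same-numbered libraries from their group means had correlations of -0.757 to 0.548 between groups. With 3 libraries in each group, and 2 libraries that stood apart, these values cannot settle whether same-numbered libraries were paired. With the number as a replicate block, 0 members were higher with ortho IL-2, since Ncaph2 was not called (adjusted p = 0.052). With GC offsets and the block together, 1 member was higher with WT IL-2. Values with ortho IL-2 were Smc2 0.136, Ncaph2 -0.028, Itpripl1 -0.036 and Top2a 0.15, and with WT IL-2 Smc2 0.149, Ncapg 0.001, Ncaph 0.009, Ncaph2 -0.07 and Gm3414 0.004. For ortho IL-2 against WT IL-2 they were Ncapd2 -0.016 and Ncapd3 0.025. Leaving out 1 library at a time, 0 to 1 members were higher with ortho IL-2. Values that changed sign in such a fit ranged, with ortho IL-2, from -0.129 to 0.2 for D430020J02Rik, from -0.071 to 0.016 for Top2a and from -0.021 to 0.005 for Aurkb. With WT IL-2 they ranged from -0.113 to 0.044 for Smc2, -0.042 to 0.01 for Ncaph and -0.069 to 0.26 for D430020J02Rik, and for ortho IL-2 against WT IL-2 from -0.019 to 0.047 for Ncapd2.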

Other observations

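The genes whose pattern over the 9 libraries was most like that of Smc4 were found among all 10702 genes tested, by the root mean square difference of log2 depth-scaled counts centred on each gene's mean. The closest was Cd28, the costimulatory receptor of T cells, at 0.0322, followed by Gm5431 (0.0389), Sgip1 (0.0405), Tmem71 (0.0413) and Fam69a (0.0453). Their log2 fold changes were -0.90 to -0.93 for ortho IL-2 against no IL-2 and -0.79 to -0.87 for WT IL-2 against no IL-2. Values near those of Smc4 follow from choosing genes by likeness over the same libraries and are no separate result. Cd28 had 96.9, 104.5 and 91.9 RPKM with ortho IL-2, 91.2, 110.3 and 109.7 RPKM with WT IL-2, and 184.8, 187.4 and 186.0 RPKM without IL-2. Trim59, the neighbour of Smc4, ranked 6 by this measure at 0.0461, and Ift80, on its other side, ranked 64 at 0.0955. All these points share the same 9 libraries.

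The genes most like Ncaph2, the member that rose, were Scamp2 (0.0283), Tubb5 (0.0286), Anapc2 (0.0288), Tor1a (0.0293) and Eif3k (0.0293). Their log2 fold changes with ortho IL-2 ran from 0.12 to 0.20, and with GC offsets from -0.09 to 0.06. Here, too, values near those of Ncaph2 without offsets follow from the choice of genes.

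Ncaph2 is listed with 4 transcripts, of which the shortest lacked 4.32% to 6.90% of the reads of the longest. That share was 5.47% to 5.83% with ortho IL-2, 4.47% to 6.51% with WT IL-2 and 4.32% to 6.90% without IL-2, so the groups overlapped.

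Among the known IL-2 targets used to check the groups, Socs1, an inhibitor of cytokine signalling, was 22.3-fold higher with ortho IL-2 and 20.6-fold higher with WT IL-2 than without IL-2. Il2ra, the IL-2 receptor alpha chain, was 3.98-fold and 4.11-fold higher, and Myc, a driver of growth, 5.39-fold and 5.48-fold higher (edgeR, adjusted p below the threshold for each).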
